A study of Mus musculus with 2 samples.

Results

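Interferon-stimulated genes were examined as a list of 46 named mouse genes, set beside all 21911 protein-coding genes of the annotation. Members were listed by name, with no value of these data in the rule, although earlier results of these data were known when the list was made. For each gene, accessible regions were sought at its promoter, taken as 1 kb to either side of any annotated start site, and at its locus, which ran from 10 kb before to 10 kb after the gene. All 46 genes were found in the annotation, GENCODE M21 on the mm10 (GRCm38) build. They fell into families and roles: 3 IFIT genes, 5 oligoadenylate synthetase genes, 2 Mx genes, 8 interferon-inducible GTPase genes, 2 genes of the ISG15 pathway, 3 transcription factors, 6 nucleic acid sensors and RNA-binding effectors, 5 restriction factors and nucleases, 3 IFITM genes, 4 genes of the TRIM, nuclear body and ADP-ribosylation group, and 5 further genes.

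Interferons are cytokines released on infection. Type I and type III interferons act through receptors coupled to JAK kinases and lead to a complex of STAT proteins with IRF9, called ISGF3, which binds the interferon-stimulated response element (ISRE) at promoters. Type II interferon, or interferon gamma, acts through STAT dimers at the gamma-activated site (GAS). The genes turned on in this way encode proteins that sense viral nucleic acid, block steps of viral replication or attack vacuoles that hold microbes, and some of them, such as Stat2, Irf9 and Irf7, encode parts of the pathway itself. Regulatory T cells carry interferon receptors, and the pathway is known to act in them.

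The assay was ATAC-seq, in which a transposase inserts sequencing adapters into open chromatin, on primary regulatory T cells of C57BL/6NJ mice. There was a single group of 2 libraries, which the labels number as biological replicates 1 and 2. No sex was collected and the age is given as unknown, no treatment is named, and a linked document on differentiation of CD4 T cells was not read. Both replicates bear the same donor identifier, so the spread between them may be technical. Entry names give 72 hours and hold the words ASTARR and insert, which no source used here explains. Replicate 1 listed 68903 regions and replicate 2 listed 78262. The number of reads behind the regions is unknown. With a single group there was no interferon-treated or untreated sample to compare, and RNA was not measured. Promoter regions were present in both replicates at all 5 regulatory T cell markers (Foxp3, Il2ra, Ctla4, Ikzf2 and Tnfrsf18) and all 6 T cell markers. Over all protein-coding genes 64.4% had one in both replicates, so a promoter region alone does not mark a cell type. Of markers of other cells, 2 of 5 for dendritic cells (Flt3 and Zbtb46), the B cell genes Pax5 and Ebf1 and the monocyte gene Cd14 had one, whereas Ms4a1, Cd79a, Csf1r, Adgre1, Lyz2, Itgax and Siglech had none in either replicate. The part of other cells in the results below was not tested.

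Stretches of member promoters are shown first, because the results below turn on the ISRE. They are reference sequence of the C57BL/6J mouse from the RefSeq promoter table (GRCm38.p6), on the strand of the gene and 5′ to 3′, with 20 bases to either side of the matches. Capitals mark ISRE matches, spelled GAAA, any 2 bases, GAAA, or its reverse complement TTTC, any 2 bases, TTTC. Neighbouring matches can overlap, and then the capitals run on. Of the 46 members, 36 had an entry in that table and 21 of these held a match. The first set comes from promoters that lay in accessible regions of both replicates, in genes of different families:
Ifit1, chr19:34640765-34640833, plus strand: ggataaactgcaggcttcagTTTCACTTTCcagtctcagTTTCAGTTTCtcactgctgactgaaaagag
Isg15, chr4:156200855-156200916, minus strand: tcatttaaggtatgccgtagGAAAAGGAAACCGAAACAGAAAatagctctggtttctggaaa
Bst2, chr8:71537567-71537622, minus strand: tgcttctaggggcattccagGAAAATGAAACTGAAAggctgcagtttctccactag
Rsad2, chr12:26456543-26456592, minus strand: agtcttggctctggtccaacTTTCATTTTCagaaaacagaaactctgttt

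Isg15 held 3 overlapping matches in tandem and Bst2 held 2. In Ifit1 the 2 matches stood apart, and in Rsad2 there was a single match. The next set shows 3 guanylate-binding protein genes of the cluster on chromosome 3, all within accessible regions of both replicates:
Gbp3, chr3:142559979-142560034, plus strand: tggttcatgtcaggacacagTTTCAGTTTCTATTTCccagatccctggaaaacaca
Gbp5, chr3:142496749-142496798, plus strand: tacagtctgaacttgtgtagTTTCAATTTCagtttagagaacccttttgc
Gbp7, chr3:142530263-142530312, plus strand: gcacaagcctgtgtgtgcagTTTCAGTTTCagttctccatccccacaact

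In each of these 3 the match read TTTC first on the strand of the gene. The immunity-related GTPase genes of chromosome 11 carried it in the other orientation:
Igtp, chr11:58199502-58199551, plus strand: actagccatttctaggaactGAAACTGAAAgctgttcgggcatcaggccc
Irgm2, chr11:58214893-58214942, plus strand: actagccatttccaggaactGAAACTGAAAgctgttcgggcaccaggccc
Irgm1, chr11:48871415-48871470, minus strand: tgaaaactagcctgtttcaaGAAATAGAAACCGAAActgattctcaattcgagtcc

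The stretches of Igtp and Irgm2 were identical at 48 of their 50 bases although they lie at different places, upstream of the RefSeq start site of each gene. Both places were accessible in both replicates. The last set comes from 3 members whose promoters had no accessible region in either replicate, and these carried the same motif:
Ifit3, chr19:34583353-34583436, plus strand: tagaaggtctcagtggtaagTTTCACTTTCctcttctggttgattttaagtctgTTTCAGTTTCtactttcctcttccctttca
Oas1a, chr5:120907510-120907565, minus strand: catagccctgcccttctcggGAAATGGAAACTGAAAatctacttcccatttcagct
Oas3, chr5:120777705-120777754, minus strand: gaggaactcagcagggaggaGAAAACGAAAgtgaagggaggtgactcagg

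Letters of the motif were thus present at promoters with and without a called region. Ifit3 and Oas1a belong to families of similar sequence, and no source used here says how reads matching several copies were treated. Their absent regions are thus uncertain. With 2500 bp to either side, Oas3 counted as open.

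Most members had an accessible promoter. A promoter region was found in both replicates at 37 of the 46 genes (80.4%), in a background of 64.4% of all protein-coding genes. Replicate 1 had a region at 37 promoters and replicate 2 at 38, and at each of the 37 the regions of the replicates overlapped. Genes of like locus length, in 10 classes, would give 29.9 of 46 open promoters. Taking for each member the share among genes of like promoter GC content, a comparison chosen after the data were seen, would give 26.0. Member promoters were indeed poor in CpG: from 250 bases before to 50 after the main start site, the median number of CpG dinucleotides was 5, against 12 over all genes and 20 over all genes with an open promoter. Open members had a median of 6 CpG and a GC content of 53%, and members without an open promoter had 3 CpG and 47%. Counting a single main start site per gene, 36 members were open, in a background of 60.5%.

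The 9 members without a promoter region in both replicates were Ifit3, Oas1a, Oas2, Oas3, Gbp4, Ifitm1, Ifitm3, Ifi44 and Rtp4. The first 8 of these had no promoter region in either replicate. Rtp4, which encodes a chaperone of membrane receptors with antiviral activity, had a promoter region in replicate 2 alone, at chr16:23609630-23610137 in an exon near a downstream start site. Its signal of 3.34 stood at the 17.0 percentile of that library, and the region held 4 ISRE matches. The main start site used for Rtp4 lies 89.6 kb upstream of the summit of that region.

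Accessible member promoters were of ordinary to modest strength. The deposited signal has no stated scale, so each promoter is given as the percentile of its strongest region within the list of its own library. For the 37 open members the median percentile was 76.2 (replicate 1) and 79.2 (replicate 2), and over all genes with an open promoter it was 82.0 and 83.6. By −log10 q the gap was wider, with medians of 72.7 and 77.9 against 87.2 and 88.7. In replicate 1, 26 of the 37 were below the median signal of all open promoters, and in replicate 2, 21 were. Widths were like those of other promoters, with medians of 1243 and 1299 bp against 1192 and 1261 bp. Summits of the replicates lay a median of 9 bp apart, and 28 of the 37 lay within 250 bp of the main start site in each replicate.

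**Figure D1:**
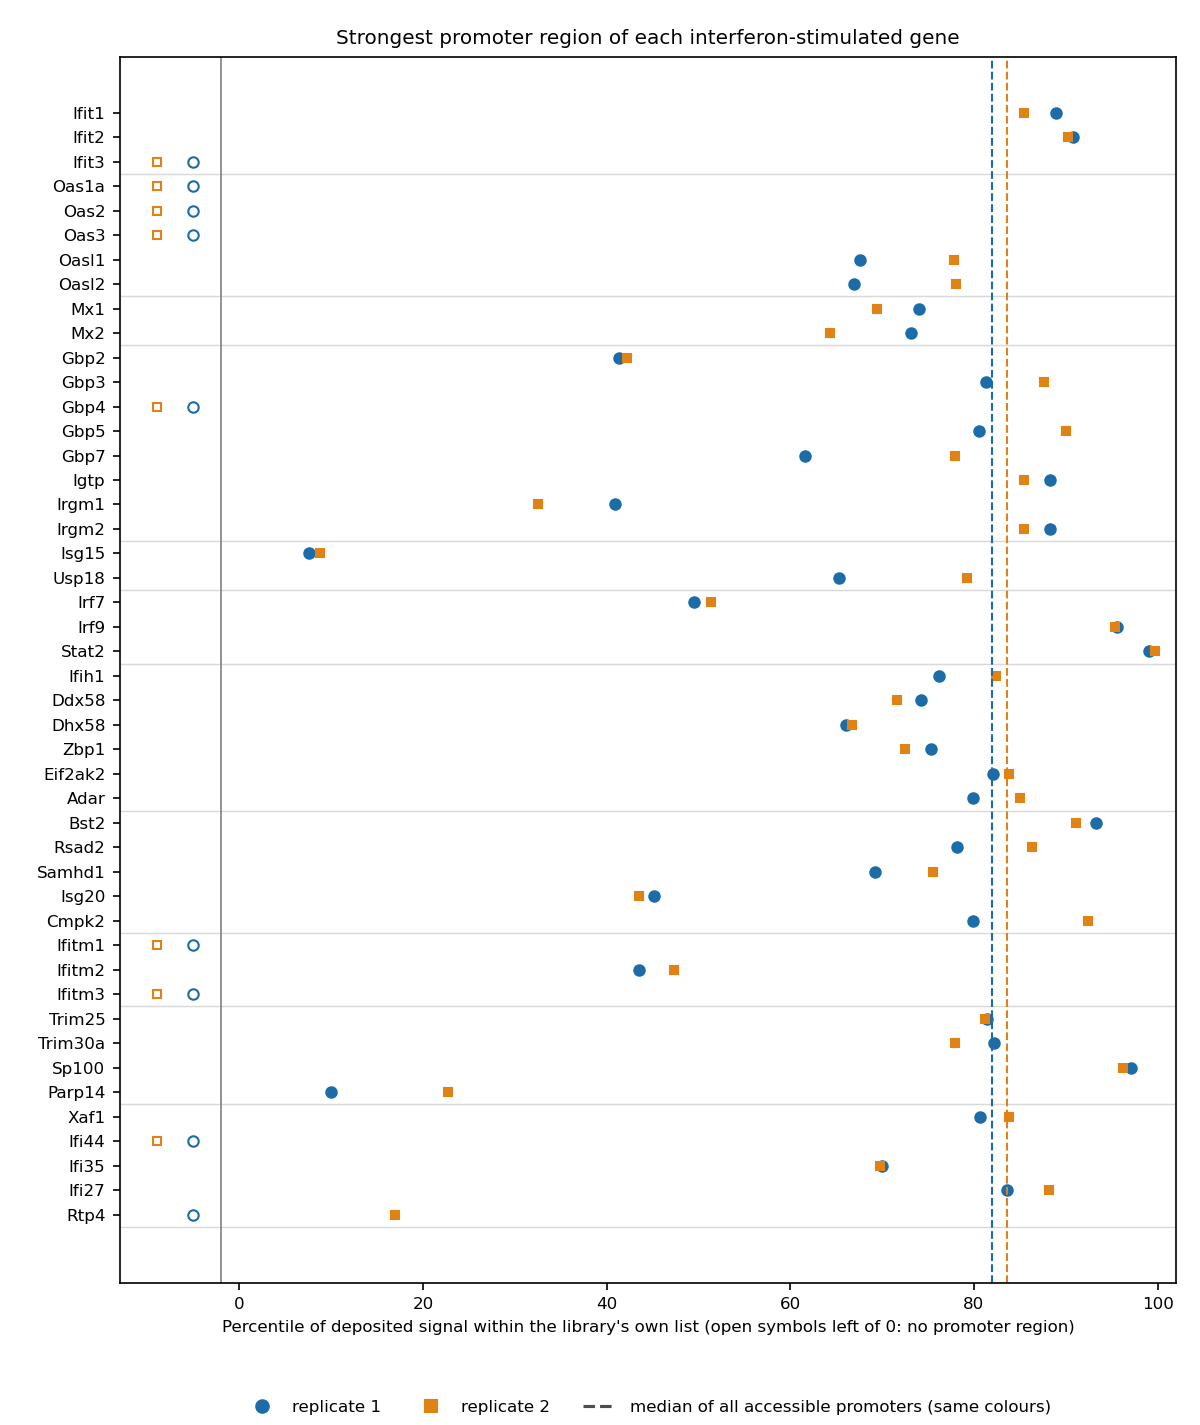
Percentile of the deposited signal (x axis, 0 to 100, within the list of each library) of the strongest promoter region of each of the 46 genes (y axis, by family), with circles for replicate 1 and squares for replicate 2. Open symbols left of 0 mark promoters with no region in that replicate, and dashed lines give the medians over all accessible promoters, 82.0 and 83.6. Stat2 stands highest and Isg15 lowest among genes with a region in both replicates.

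The range was wide, with Stat2 highest and Isg15 lowest in both replicates. Stat2 had a signal of 17.3 in replicate 1 and 18.4 in replicate 2, at the 99.1 and 99.7 percentile. Isg15, which encodes the ubiquitin-like protein of this pathway and is widely used as a mark of interferon response, had 3.03 and 2.83, at the 7.57 and 8.73 percentile. By −log10 q the Isg15 region stood higher, at 30.2 and 33.5, and still below the middle of both lists. By the mean percentile of both replicates, the next lowest were Parp14 (3.18 and 3.69, percentile 10.02 and 22.7), Irgm1 (5.62 and 4.44, 40.9 and 32.5), Gbp2 (5.69 and 5.28, 41.3 and 42.3) and Isg20 (6.01 and 5.36, 45.1 and 43.5). By the same mean, the next highest after Stat2 were Sp100 (15.9 and 15.3, 97.1 and 96.2), Irf9 (15.2 and 15.0, 95.6 and 95.3), Bst2 (14.3 and 13.5, 93.3 and 91.1) and Ifit2 (13.6 and 13.2, 90.8 and 90.2). Single replicates differed in places: Ifitm2 was below Isg20 in replicate 1, and Cmpk2, with 13.9 at the 92.5 percentile, was above Bst2 and Ifit2 in replicate 2. Gene families are mixed at both ends of this order.

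The ISRE was far more frequent at member start sites than at those of other genes. It was sought on both strands from 250 bases before to 50 after the main start site, and 25 of the 46 members (54.3%) had at least 1 match, in a background of 3.62%. At least 2 matches were found at 10 members, against 0.292% of all genes. Zbp1 had 4 matches and Isg15 had 3. With any start site in place of the main one, a choice made after the data were seen, 31 members had a match, against 10.02% of all genes. The list is defined by response to interferon, so this share describes the genes and is no result of the accessibility data. The GAS, spelled TTCNNNGAA, was found at 13 members (28.3%), in a background of 8.23%.

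Accessible regions covered most of these matches. Counted per gene, there were 38 ISRE matches at main start sites, and 31 lay inside regions of both replicates. All 31 belonged to the 20 members with both a match and an open promoter. The other 7 lay at Ifit3, Oas1a, Oas2, Oas3 and Ifitm3, where no promoter region was called. Igtp and Irgm2 share the match at chr11:58199522-58199531, which counts for both genes here and among the 25 members. Matches had a median position of −62 bases from the start site, and 31 of the 38 lay within the 150 bases upstream. Open promoters were about as frequent with the motif as without it: 20 of the 25 members with a match were open, and 17 of the 21 without. Over all protein-coding genes, 56.0% of the 794 with a match were open and 64.7% of those without.

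**Figure D2:**
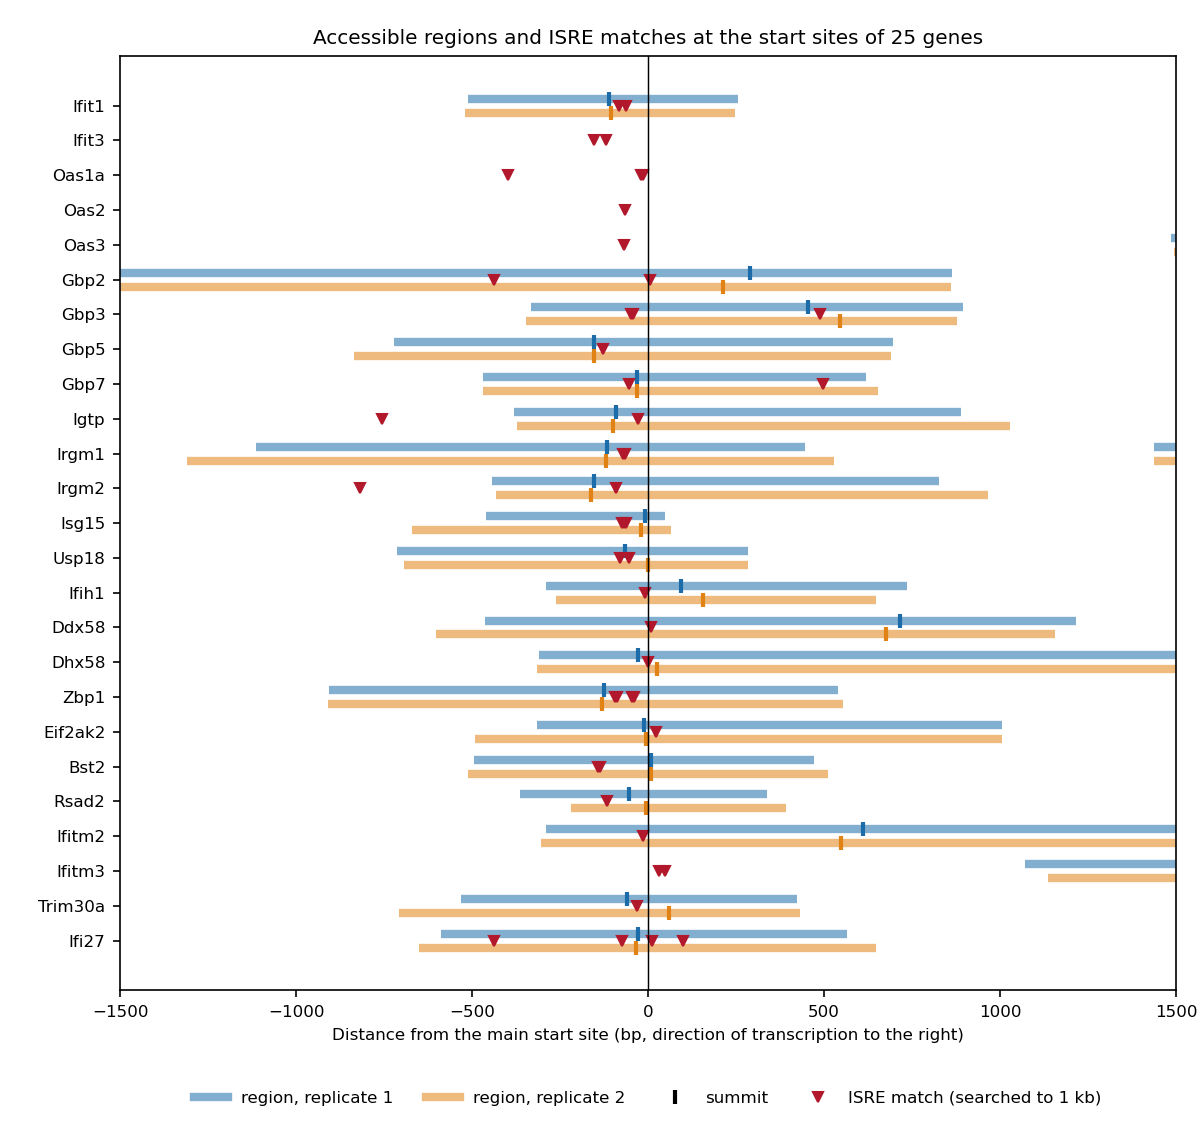
Accessible regions (blue for replicate 1, orange for replicate 2, summits as vertical ticks) and ISRE matches (red triangles, searched to 1 kb from the start) around the main start site of the 25 genes with a match near it; the x axis is distance in bp with transcription to the right. Regions of both replicates span the start site and the nearest match at 20 genes, and Ifit3, Oas1a, Oas2, Oas3 and Ifitm3 have matches and no region there.

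At the summit, the point of a region with the most signal, the picture was the same. Since 28 of the 37 summits of replicate 1 lay within 250 bp of the main start site, this largely covers the sequence near that site. The summit share too describes genes listed for their response to interferon and is no separate support. Within 150 bp of the summit of replicate 1, 19 of the 37 open promoters (51.4%) had an ISRE, in a background of 2.53% of all open promoters. These were the promoters of Ifit1, Oasl2, Gbp3, Gbp5, Gbp7, Igtp, Irgm1, Irgm2, Isg15, Usp18, Ifih1, Dhx58, Zbp1, Eif2ak2, Bst2, Rsad2, Isg20, Trim30a and Ifi27. Igtp and Irgm2 share a promoter region, so these are 18 separate regions. Within 50 bp of the summit 12 of the 37 had an ISRE, against 0.893% of all open promoters. The GAS was found near the summit at 10 members (27.0%), in a background of 6.77%, among them Gbp5, Gbp7, Zbp1 and Irf9. The AP-1 motif TGANTCA, bound by FOS, JUN and BATF proteins of activated T cells, was found at 8 members (21.6%), in a background of 5.76%. The ETS motif ACCGGAAGT was found at no member, in a background of 2.11%. That share is too low for an absence among 37 promoters to be read as a depletion. These backgrounds were not matched for GC content near the main start site, whose median was 53% at open members and 60.7% at all open promoters. The part of base composition in the motif shares was not tested. A match to letters is not evidence of binding.

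**Figure D3:**
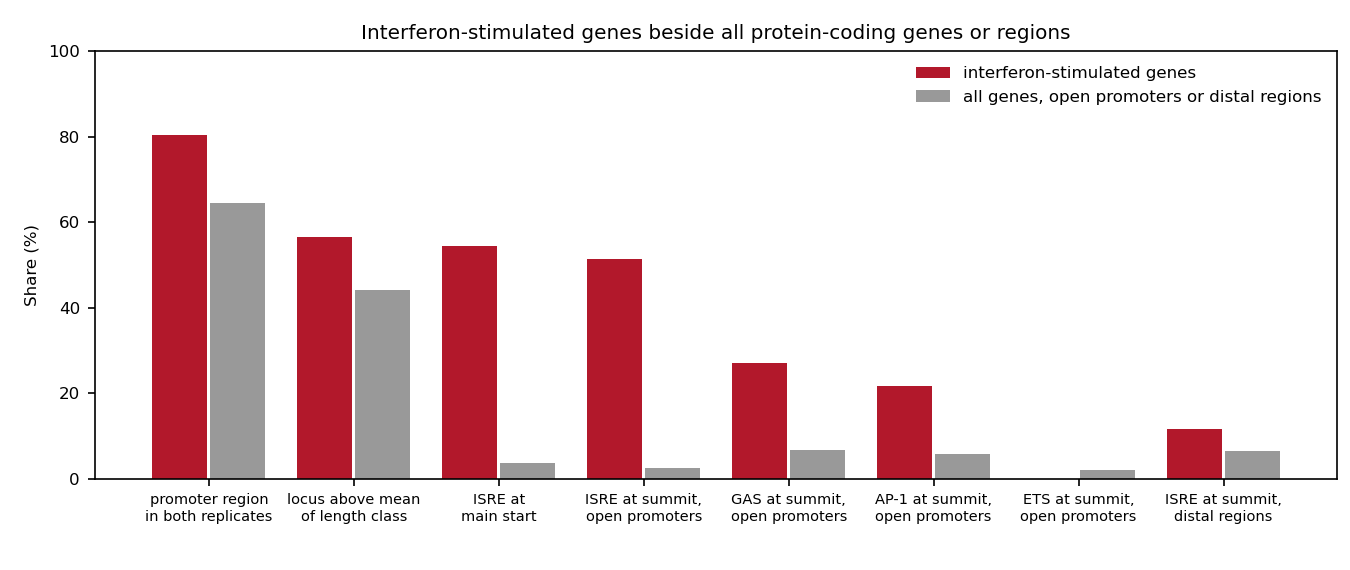
Share in percent (y axis, from 0) of interferon-stimulated genes, or of their open promoters or distal regions (red), beside the same share over all protein-coding genes, open promoters or distal regions (grey). The bars for the ISRE differ most, with 54.3% against 3.62% at main start sites and 51.4% against 2.53% at summits of open promoters. Both shares describe the sequence of genes listed for their response to interferon.

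Among the transcription factors that carry interferon signals, Stat2 and Irf9 had 2 of the 3 strongest member promoters by signal. The Stat2 region at chr10:128270100-128271051 in replicate 1 had its summit at −122 bases from the main start site, and at −105 in replicate 2. A single ISRE match lay in this region, centred at −295.5 bases from the main start site used here and thus outside the window of the count above:
Stat2, chr10:128270256-128270305, plus strand: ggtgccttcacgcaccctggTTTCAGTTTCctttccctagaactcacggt

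Irf9, which encodes the main DNA-binding part of ISGF3, had no ISRE within 1 kb of its main start site and a GAS 143 bases downstream of it, inside the region of both replicates. Irf7, the regulator that amplifies type I interferon production, had a region of middling strength (6.47 and 6.21, percentile 49.5 and 51.4). Its locus held that region alone, 0.63 times the mean of its length class, whereas Irf9 held 3 replicated regions (1.83 times) and Stat2 held 3 (1.14 times). The Irf9 regions away from its own promoter lay at start sites of Rec8, and a Stat2 region lay at the start of Il23a. Replicated here means a region of replicate 1 that a region of replicate 2 overlaps by at least 1 bp.

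All 6 nucleic acid sensors and RNA-binding effectors had open promoters, and 5 of the 6 had an ISRE at the main start site. The backgrounds over all protein-coding genes were 64.4% and 3.62%. Ifih1 encodes MDA5, Ddx58 encodes RIG-I and Dhx58 encodes LGP2, the receptors for viral RNA in the cytosol. Their promoter signals were 10.3 and 11.2 in replicates 1 and 2 for Ifih1, 9.95 and 9.13 for Ddx58, and 8.61 and 8.32 for Dhx58. Zbp1, a sensor of Z-form nucleic acid that can start cell death, had 10.1 and 9.27, and its 4 ISRE matches lay from −94.5 to −40.5 bases. Eif2ak2, the kinase PKR, had 11.5 and 11.6. Adar, an RNA-editing enzyme, had 10.997 and 11.8 with no ISRE and a GAS near the summit. The percentiles of these 6 ran from 66.0 to 82.1 in replicate 1 and from 66.7 to 85.0 in replicate 2, so they differed little among themselves. At Ddx58 the summit lay 717 and 676 bases downstream of the main start site, while its ISRE lay 9.5 bases downstream.

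The interferon-inducible GTPases, which act on the vacuoles of intracellular microbes, were the family with the most regions, 33 summed over genes. A region shared by neighbouring loci was counted for each gene, as for Igtp and Irgm2, and the family is also the largest. Of 8, 7 had an open promoter, 7 had an ISRE at the main start site and 7 exceeded the mean of their length class. The shares over all protein-coding genes were 64.4%, 3.62% and 44.2%. Gbp5 exceeded its class mean only narrowly, at 1.01 times. Igtp and Irgm2 share a region at chr11:58199174-58200446, with signals of 12.9 and 12.0, because a long Irgm2 transcript in the annotation starts just downstream of the Igtp start. A further Irgm2 start has a region of its own at chr11:58214550-58215018 in replicate 1, with signals of 5.49 and 5.13. The ISRE stretch printed above for Irgm2 lies in this region. Gbp5 (11.2 and 13.2), Gbp3 (11.3 and 12.5) and Gbp7 (7.99 and 10.3) had higher signals than Gbp2 (5.69 and 5.28), whose region was the widest of the 37 at 2690 bp in replicate 1 and 2838 bp in replicate 2. Gbp4 was the exception, with no promoter region in either replicate. Its locus still held 4 replicated regions, 1.52 times the mean of its length class. The nearest to the start site lay upstream, with its summit at −2121 bases in replicate 1 and −2045 in replicate 2 and signals of 7.73 and 8.53. Another at chr5:105145219-105146319, outside any gene, had its summit at −6371 bases in both replicates, signals of 6.06 and 5.53, and 3 ISRE matches.

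The IFIT proteins bind viral RNA. Ifit1 and Ifit2 had strong promoter regions, with signals of 13.1 and 12.0 for Ifit1 (percentile 89.0 and 85.5) and 13.6 and 13.2 for Ifit2. Ifit3 had none in either replicate, although it lies between them and carries ISRE matches centred at −153.5 and −119.5 bases. The Ifit1 region also covers the start of Ifit1bl2, which runs the other way, so it cannot be given to either gene. Within Ifit3 a region lay in an exon, with its summit 4948 bases downstream of the start in replicate 1 and 4745 in replicate 2, and signals of 8.83 and 12.3. Ifit2 had no ISRE match by these letters within 1 kb of its main start site.

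The oligoadenylate synthetases make the messenger that activates RNase L, and 2 of the 5 genes had an open promoter, in a background of 64.4%. Oas1a, Oas2 and Oas3 had no promoter region in either replicate although each held 1 or 2 ISRE matches near the main start site. Oas1a had no region anywhere in its locus in either library. Oas2 had a single region, in an intron 7.56 kb downstream of the start, with signals of 7.64 and 9.34. Oas3 had a region in an intron at chr5:120775306-120776174, with its summit 1865 bases downstream of the start in replicate 1 and 1936 in replicate 2. That region was strong, with signals of 13.4 and 13.4 at the 90.2 and 90.9 percentile, and it had no ISRE. The 2 Oas-like genes were open. Oasl2 had signals of 8.78 and 10.3, with 2 ISRE matches near its summit, and Oasl1 had 8.85 and 10.2 at a region whose summit lay at −1322 bases from the main start site, the nearest annotated start.

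The Mx proteins are dynamin-like GTPases with antiviral activity. Mx1 (9.91 and 8.75) and Mx2 (9.79 and 7.93) had open promoters, each locus held that region alone as replicated, and neither had an ISRE within the window at the main start site. Further upstream, Mx1 had a match centred at −907.5 bases, outside its region. Mx2 had a match at −934.5 bases, inside its region in both replicates. In the annotation Mx2 is a polymorphic pseudogene. The C57BL/6 strain is known to carry a defective Mx1 allele.

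In the ISG15 pathway, Usp18, the protease that removes ISG15 from proteins and dampens receptor signalling, had a promoter region of 8.55 and 10.5 (percentile 65.3 and 79.2), with ISRE matches at −78.5 and −54.5 bases. Isg15 itself had the weak region given above, at chr4:156200771-156201279 in replicate 1. Its locus held 3 replicated regions, 2.69 times the mean of its length class, but the other 2 lay at the start sites of Agrn and AW011738, with signals of 7.94 and 8.24 at Agrn and of 6.53 and 6.67 at AW011738. The Isg15 promoter was thus the weakest of the 3 in each library.

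All 5 restriction factors and nucleases were open, in a background of 64.4% of all protein-coding genes. Bst2 encodes tetherin, which holds budding virus at the cell surface, and its region lay with its summit 9 bases from the start in both replicates. Rsad2 (viperin) had signals of 10.7 and 12.2, and Cmpk2, a nucleotide kinase gene beside it, had 10.998 and 13.9. Samhd1, which depletes nucleotides, had 9.11 and 9.81 at its main promoter, and its locus held 6 replicated regions (1.68 times). The strongest of these lay in an exon of Samhd1, 13.3 kb downstream of the start, with signals of 13.8 and 13.2. Isg20, an exonuclease gene, had an ISRE 31.5 bases from a summit that lay 538 bases downstream of the main start site.

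The IFITM proteins hinder fusion of viruses with cell membranes. Of the 3 genes only Ifitm2 had a promoter region (5.89 and 5.78, percentile 43.5 and 47.4), which also covers the start of Gm45717. Ifitm3 had no promoter region and 2 ISRE matches just downstream of its start. A region of 10.2 and 11.3, at the 75.6 and 82.9 percentile, lay just past the 3′ end of this short gene with its summit at 1594 bases in both replicates. Ifitm1 had a single region in its locus, 6392 bases downstream in replicate 1 and 6356 in replicate 2, with signals of 8.12 and 8.30.

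The 4 TRIM, nuclear body and ADP-ribosylation genes were all open, in a background of 64.4% of all protein-coding genes. Trim25, a ubiquitin ligase of the RIG-I pathway, had 11.3 and 10.95, and Trim30a had 11.5 and 10.3 with an ISRE 28.5 bases from the summit of replicate 1. Sp100, a nuclear body protein, was open in both replicates only at an internal start site, at chr1:85703323-85704109 in an intron, 53.7 kb downstream of the main start site. At its main start site a region of 5.34 was called in replicate 2 alone. Parp14 had the weak promoter region given above and a stronger region in an intron 2.308 kb downstream, with a signal of 9.40 in replicate 1 and an ISRE near its summit.

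Of the 5 further genes, Xaf1 (11.2 and 11.5), Ifi35 (9.30 and 8.82) and Ifi27 (11.8 and 12.6) were open. Ifi27, which encodes a small mitochondrial membrane protein, had 3 ISRE matches within 150 bp of its summit. Ifi44 had no region at its locus in replicate 1 and 1 in replicate 2, away from the promoter.

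Loci of the members held slightly more regions than those of other genes of like length. The mean was 2.76 replicated regions per member locus against a mean of 2.47 for the length classes, a ratio of 1.12. Per replicate the ratio was 1.09 and 1.12, a mean of 1.11 ± 0.0216 (SD, n = 2). More replicated regions than the mean of their class were found at 26 members, in a background of 44.2% of all protein-coding genes. Only Oas1a and Ifi44 had no replicated region, in a background of 23.7%. The median ratio of single members was 1.13, against 0.84 over all protein-coding genes. No test was run, since genes are not replicates and the libraries form a single group.

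Irgm2 had the most, with 7 replicated regions of 7 in replicate 1 and 8 in replicate 2 (2.65 times). Samhd1 followed with 6, of 6 regions in replicate 1 and 8 in replicate 2. Igtp (3.05 times), Irgm1 (2.48 times), Dhx58 (2.48 times) and Ifih1 (1.40 times) had 5 each. By ratio the order was Igtp, Isg15 (2.69 times), Irgm2, Bst2 (2.51 times), then Irgm1 and Dhx58. Part of this comes from neighbours: at Dhx58, 3 of the 5 regions lay at start sites of Zfp385c, Kat2a and Hspb9, and at Bst2 the strongest of 4, with signals of 15.9 and 17.1, lay at the start of Mvb12a. The 5 regions of Igtp all lie within the locus of Irgm2 as well. Some counted regions of replicate 1 were also overlapped by the same region of replicate 2. This holds for chr11:58223831-58224768 and chr11:58225035-58226033 at Irgm2. It also holds for chr8:71527945-71528178 and chr8:71528473-71528967 at Bst2. By family the ratio ran from 0.37 for the Mx genes and 0.66 for the oligoadenylate synthetases to 1.60 for the ISG15 pathway and 1.70 for the GTPases.

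**Figure D4:**
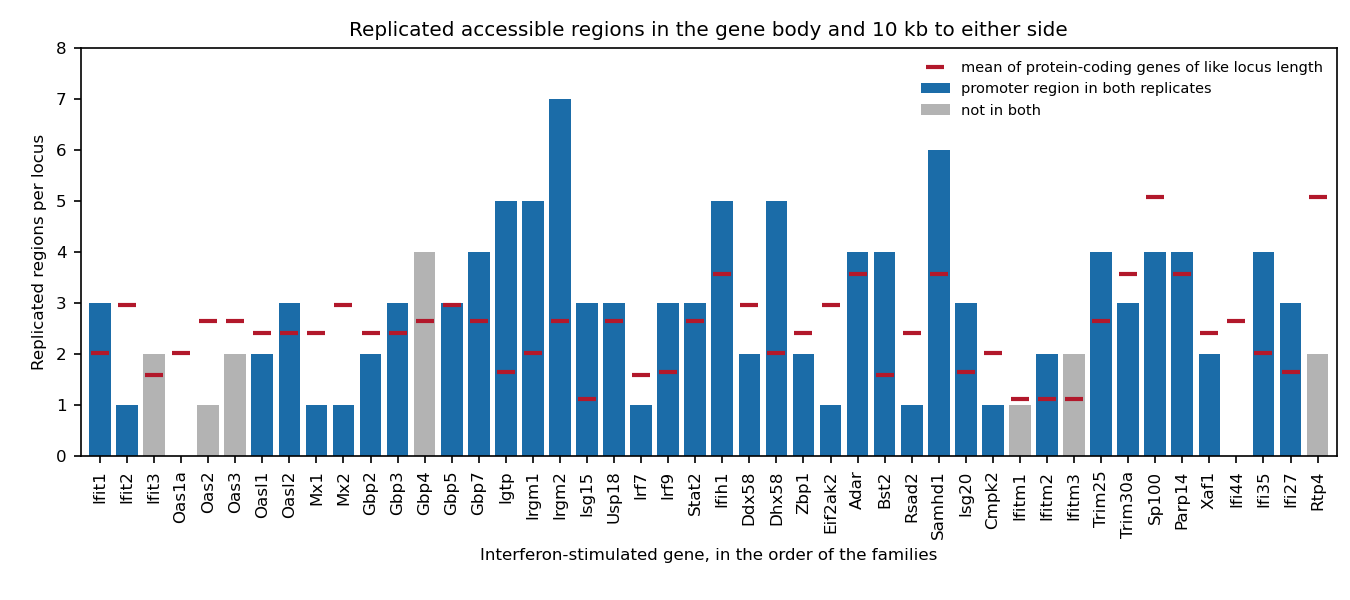
Replicated regions in the gene body and 10 kb to either side (bars, y axis, count) for each of the 46 genes (x axis, by family), blue where the promoter had a region in both replicates and grey where it did not. Red dashes give the mean over protein-coding genes of like locus length, which 26 genes exceed. Irgm2 has the highest bar at 7, and Oas1a and Ifi44 are at 0.

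Summed over the members there were 127 replicated regions, of which 118 were distinct and 9 lay in at least 2 member loci. Of the 118, 41 lay at a promoter of the member, 17 at a promoter of another gene, 27 in the gene body and 33 in the flanks. Their summits fell in exons of protein-coding genes in 27 cases, in introns in 41 and outside genes in 50. Among the 60 that lay at no promoter, 7 (11.7%) had an ISRE within 150 bp of the summit, in a background of 6.48% of distal replicated regions. These were regions at Parp14, Trim30a, Irgm2, Irgm1, Gbp3, Gbp4 and Samhd1. The Trim30a region, in an intron at chr7:104445648-104446943 and 19.05 kb downstream of the main start site, was the strongest of the 7, with a signal of 14.5 in replicate 1 at the 93.7 percentile. RefSeq places another start site of Trim30a inside this region, so that it is distal by GENCODE start sites alone. The shares at distal regions lay closer to their background than those at promoters.

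Several members lie in gene clusters, and accessibility within a cluster was uneven. The 4 windows below span the outermost members with 10 kb to either side, and the genome as a whole held 2.35 replicated regions per 100 kb. The whole genome includes stretches far from genes and is no matched background. Against genes of like locus length, the ratio was 0.91 for the listed IFIT genes and 1.49 for the listed IFITM genes, all inside these windows. The family ratios of 0.66 for the oligoadenylate synthetases and 1.70 for the GTPases take in members outside the windows. These are Oasl1 and Oasl2, and Gbp4, Igtp, Irgm1 and Irgm2. Inside the Oas window the ratio was 0 for Oas1a, 0.38 for Oas2 and 0.76 for Oas3. Inside the Gbp window it was 0.83 for Gbp2, 1.24 for Gbp3, 1.01 for Gbp5 and 1.52 for Gbp7. The Ifit window on chromosome 19 (119 kb) held 6, or 5.03 per 100 kb, and the strongest in both replicates lay at Ifit2. The next was the Ifit1 promoter in replicate 1 (13.1) and the region in the Ifit3 exon in replicate 2 (12.3). The Oas window on chromosome 5 (197 kb) held 8, or 4.06 per 100 kb. Its strongest region, with signals of 18.3 and 17.0, lay 110 kb from the left edge, outside the genes, and past 117 kb, where Oas1f, Oas1h, Oas1g and Oas1a lie, replicate 1 had no region and replicate 2 had 2 weak ones (4.34 and 3.84). The Gbp window on chromosome 3 (164 kb) held 9, or 5.49 per 100 kb, with regions at the starts of all 4 members and none at the start of Gbp2b. The Ifitm window on chromosome 7 (75.9 kb) held 6, or 7.90 per 100 kb, and 1 of the 6 lay at a member promoter, that of Ifitm2.

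**Figure D5:**
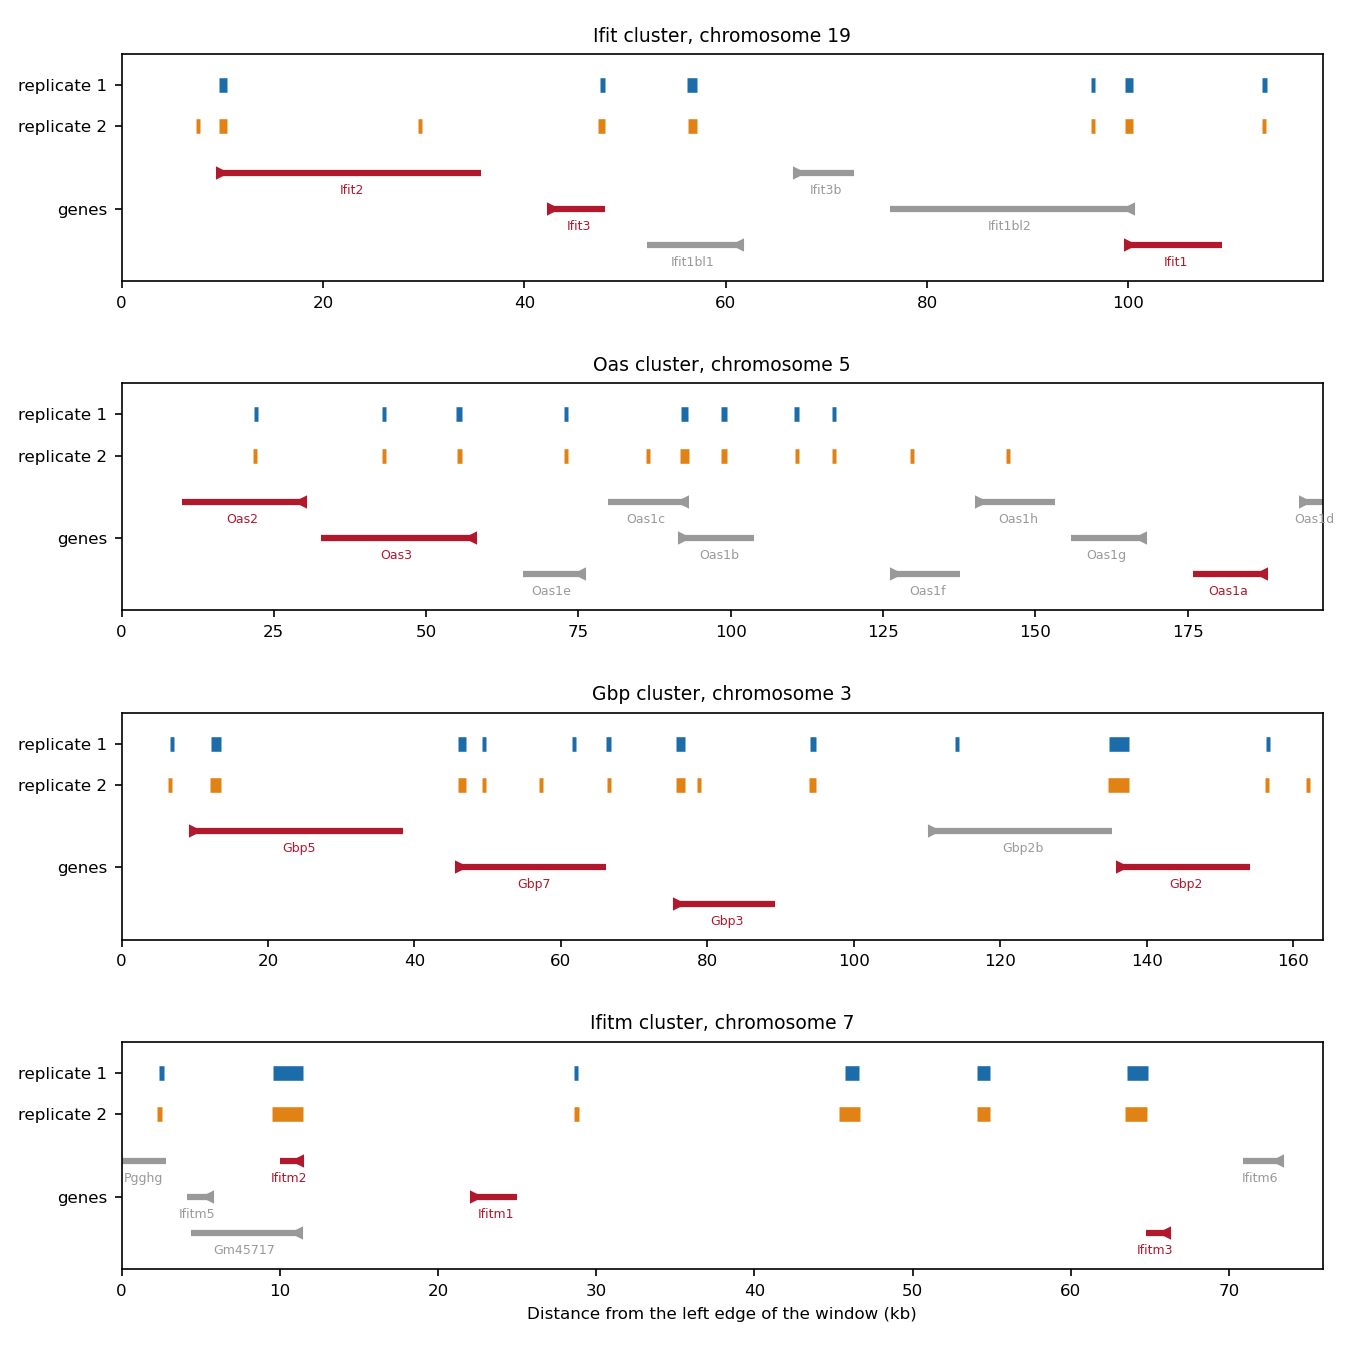
Accessible regions of replicate 1 (blue) and replicate 2 (orange) in 4 gene clusters, with interferon-stimulated genes of the list in red, other protein-coding genes in grey and arrowheads at the gene starts; the x axis is distance in kb from the left edge of each window. Regions lie at the starts of Ifit2, Ifit1 and the 4 Gbp genes, and none lies at the starts of Ifit3, Oas2, Oas3, Oas1a, Ifitm1 or Ifitm3.

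Paralogs of the members that are not on the list were open at 12 of 28 promoters, in a background of 64.4% of all protein-coding genes. Of the Oas paralogs 2 of 7 were open, Oas1b and Oas1c, which share a region between their divergent starts. Of the Ifit paralogs 1 of 3 was open, Ifit1bl2, through the region shared with Ifit1. Of the Gbp paralogs 2 of 6 were open, Gbp9 and Gbp10. All 3 Trim30 paralogs were open, as was Ifi27l2a, with a percentile of 93.7 and 86.4. Members of such families are similar in sequence, and no source used here says how reads matching several copies were treated, so an absent region in a family of near copies is uncertain.

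The genes upstream of the members were accessible where they encode receptors and signal carriers, and mostly not where they encode interferons. Over all protein-coding genes, 64.4% had an open promoter. The share was 32.7% in the shortest class of locus length, which held all the listed interferon genes but Ifng. All 6 receptor genes had an open promoter, among them Ifnar1 (percentile 89.0 and 93.9) and Ifngr1 (95.3 and 93.5). All 12 genes of transducers and regulators did too, with 18 replicated regions at Jak1 (2.40 times its length class), 8 at Irf2, 7 at Irf8 and 6 at Socs1 (3.76 times). In the sensing pathway 11 of 12 were open, and Tlr3, a receptor for viral RNA in endosomes, had a promoter region in replicate 2 alone. Among 21 interferon genes, 3 had a promoter region in both replicates: Ifng (percentile 39.6 and 48.0), Ifnl2 (68.8 and 77.0) and Ifna4 (3.37 and 11.9). The Ifna4 regions of the replicates did not overlap each other. The gene for interferon beta, Ifnb1, had none in either replicate. Of the 21 interferon genes 11 had an ISRE at the main start site, in a background of 3.62%, so the motif was also frequent in a list with few promoter regions. All 11 were Ifna genes or Ifnab, a family of similar sequence, so they are not separate cases. As for the paralogs, an absent region at such genes is uncertain.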

How the data were processed

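The deposited data are 1 narrowPeak list of accessible regions per library on mm10, called per library and not on pooled reads, per the deposited text files. Per the file layout, the authors gave each region a signal value, a −log10 p-value, a −log10 q-value, a score of at most 1000 and a summit offset. The sources used here do not name the aligner, the peak caller, the filters or any shift of reads for the transposase. The deposited signal and −log10 q served only to order regions, or to filter them, inside each list, and the deposited score was not used.

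From these, promoter and locus regions were counted per gene with GENCODE M21 on chromosomes 1 to 19, X and Y. The main start site is that of the principal transcript in the annotation, or else of the longest. Each locus count was divided by the mean of its class, 1 of 10 classes of locus length. Motifs were sought in GRCm38.p6 on both strands, overlapping matches included. Python 3.11.15, pandas 2.3.3, numpy 2.4.6, pysam 0.24.0 and matplotlib 3.10.9 were used, and the counting was tested on simulated data. Background shares are over 21911 protein-coding genes, in which Mx2 is not counted.

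The members and the other gene lists were chosen with earlier results of these data known. Some genes of the marker lists are not reported here. Full values were given by rule for members without an open promoter, the 5 highest and 5 lowest by signal percentile, the 5 with the most regions or the highest ratio, and those with an ISRE near the summit. Other members were named after their values were seen. Alternatives were a −log10 q of at least 5, the 50000 strongest regions by signal or by −log10 q, an overlap of 0.5 of both regions, other windows, 100 length classes, leaving out each replicate, a 9-letter motif, and 4 added after the data were seen.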

Additional observations from a re-analysis of the deposited data

How the results depend on the processing

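The count of 37 members with an accessible promoter ran from 34, with the 50000 strongest regions by signal, to 40, with 2500 bp to either side of a start site. In these 2 settings the share over all protein-coding genes was 59.4% and 67.2%. Leaving out each replicate gave 37 to 38. Of 414 calls for single members under these settings, 404 were as reported. The exceptions were Oas3, Gbp4 and Ifitm3, open with 2500 bp, Oasl1, closed with 500 bp, Irgm1, Isg15 and Parp14, closed with the 50000 strongest by signal, Isg15, also closed with those by −log10 q, Sp100, closed at its main start site, and Rtp4, open without replicate 1. The locus ratio of 1.12 was 1.16 at a −log10 q of at least 5, 1.18 and 1.21 with the 50000 strongest regions by signal and by −log10 q, and 1.09 for gene bodies alone. Without each replicate in turn it was 1.09 to 1.12, and in the other 4 settings it ran from 1.11 to 1.13. Members above the mean of their length class numbered 25 to 30, in backgrounds of 43.4% to 47.6% of all protein-coding genes. Open promoters with an ISRE near the summit were 12 within 50 bp, against 19 within 150 bp, and 18 to 21 in the other settings. The shares over all open promoters were 0.893% within 50 bp, 2.53% within 150 bp and at most 5.92%, with the 9-letter motif. No paired analysis was possible because there was 1 group. Locus counts of single members moved by over 1.5 times in 88 of 460 cases. The read depth is unknown, so a promoter without a region may be below what these lists can show.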
